A study of Mus musculus with 8 samples.

Results

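The killer-cell lectin-like receptor genes were taken as the protein-coding genes whose RefSeq symbol starts with Klr, which gave 29 of 21900 protein-coding genes. Of these, 27 lie on chromosome 6 of the mm10 assembly and were measured, each over its span with 5 kb on both sides. The other 2, Klra16 and Klra23, are listed in the gene table before position 3 Mb, ahead of the first peak of any library on chromosome 6 at 3050379, and were not analysed here. Of the 27 genes, 24 form the NK gene complex from Klrb1a to Klra1 (chr6:128609227-130386874), Klra2 lies beyond it, and Klrg1 and Klrg2 lie elsewhere on the chromosome.

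The proteins are C-type lectin-like receptors of the cell surface, known mainly from natural killer (NK) cells, where inhibitory and activating members together set whether a target cell is attacked. Inhibitory members carry a tyrosine motif that recruits phosphatases such as the product of Ptpn6, and many activating members signal through the adaptors encoded by Tyrobp and Hcst. Single members are also known from T cells, among them Klrg1, which marks effector cells including effector regulatory T cells.

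The cells were regulatory T cells (Treg) of C57BL/6 mice aged 8 to 12 weeks. They were enriched on magnetic beads, and tumour Treg were sorted by flow cytometry, per the labels. The repressive histone modification H3K9me2 was mapped in tumour Treg by CUT&RUN (an antibody directs a nuclease to cut out the marked DNA), with 3 libraries from mice with a Treg-restricted conditional knockout (cKO) of the H3K9 demethylase family gene Jmjd1c and 3 from wild-type (WT) mice. ATAC-seq, which marks open DNA by transposase insertion, was run on WT cells, as 1 library from tumour Treg and 1 from spleen Treg. In bulk libraries, a peak held by fewer cells and one with less signal per cell cannot be told apart. The driver of the knockout, the tumour and whether animals were pooled are not given in the sources used. No label ties the 3 libraries of a group to separate animals, so p-values measure only the spread between these libraries, which may be technical. The names in the headers of cKO replicates 1 and 3 carry the same knockout number. These names begin differently in cKO and WT libraries, so a batch that they stand for cannot be told apart from genotype.

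The deposited values were peak lists called library by library, from 24774509 to 30313851 tags per H3K9me2 library and 11293674 (tumour) and 11068821 (spleen) tags per ATAC library. H3K9me2 is given as the percent of a gene's window covered by peaks, with the 3 values of a group in the order of replicates 1, 2 and 3. The lists differed in length, from 114026 to 178201 peaks in cKO and 109589 to 136199 in WT, so coverage of any gene moves with its library. ATAC peaks were called 869 bp wide with a threshold of 15 tags in spleen and 322 bp wide with 10 tags in tumour, which gave 13078 and 27625 peaks. ATAC peaks lay at 7 of 8 Treg marker genes in each tissue, Foxp3 and Il2ra included and Ctla4 without one, and at 0 of 2 CD8 T cell genes (Cd8a, Cd8b1) in either. NK and innate lymphoid markers held 13 peaks at 5 of 6 genes in tumour and 5 peaks at 4 of 6 in spleen, with Ncr1, which encodes the NK receptor NKp46, at 0 in both. Myeloid markers held 7 peaks at 3 of 5 genes in tumour (Spi1, Itgam and Cd14) and 0 in spleen, B cell markers 2 peaks at 2 of 4 genes in each, and epithelial and melanocyte markers 4 and 3 peaks, each at 2 of 5 genes. Over all 21779 genes placed on the chromosomes, 60.2% held a tumour and 47.3% a spleen peak within 5 kb. The part of other cell types in the peaks described below was not tested.

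None of the receptor genes separated cKO from WT by the test. Of 27 members, 0 passed an adjusted p of 0.05 (limma, Benjamini-Hochberg over 19018 genes), and the lowest adjusted p among them was 0.543. Over all tested genes 0% passed, and 1591 genes had an unadjusted p under 0.05. Coverage of the median member was 7.0, 5.05 and 3.06% in cKO and 2.34, 3.23 and 4.25% in WT, so the groups overlapped. The median of all tested genes was 4.19, 4.58 and 3.32% in cKO and 1.64, 3.39 and 2.62% in WT. The mean was higher in cKO at 21 of 27 members, beside 71.2% of all tested genes. The median difference was 2.49 percentage points over the members and 1.26 over all tested genes. With each library scaled to its genome-wide coverage, 17 of 27 members and 62.3% of all genes were higher in cKO, and the median differences were 1.30 and 0.709 percentage points.

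**Figure D1:**
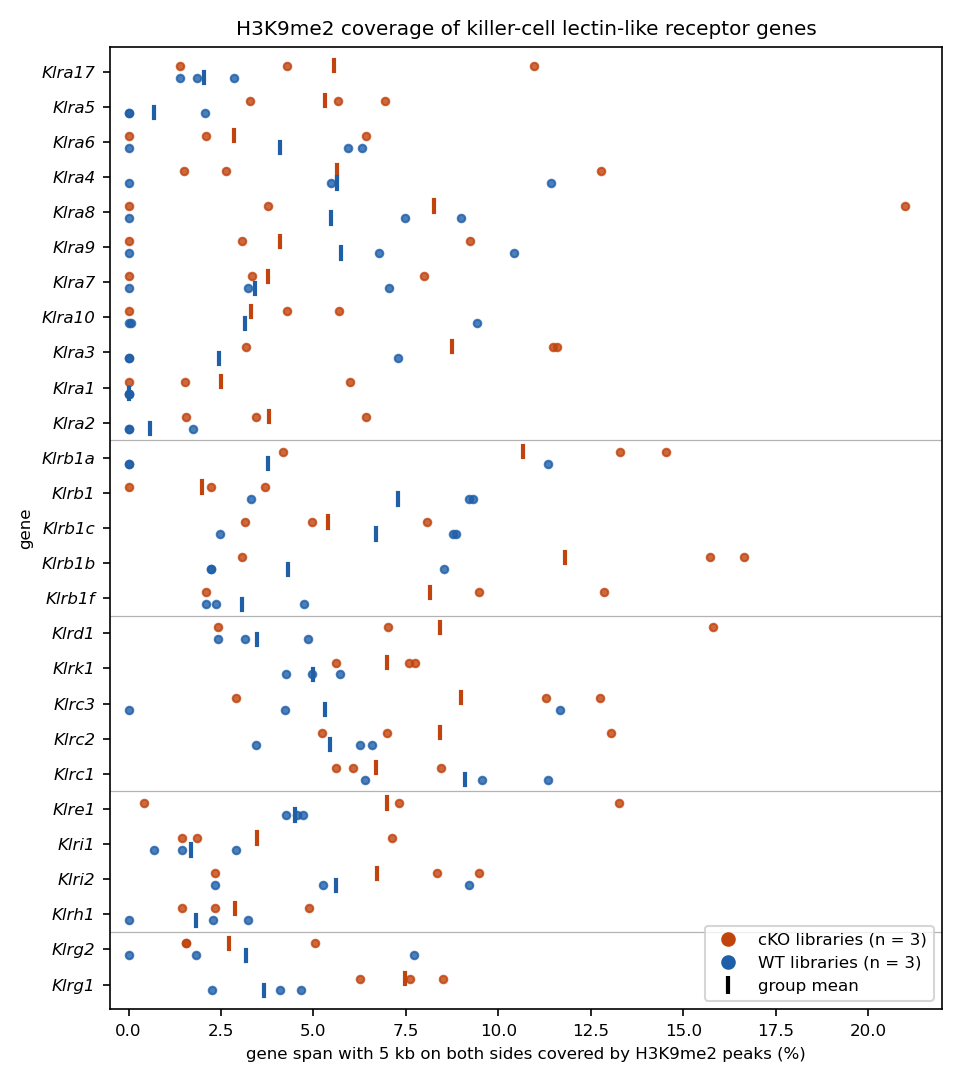
Percent of each gene's span with 5 kb on both sides covered by H3K9me2 peaks (horizontal axis) for 27 receptor genes, grouped from top to bottom as Klra, Klrb, Klrc with Klrd1 and Klrk1, Klre1 with Klri and Klrh1, and Klrg genes. Points are libraries and bars are group means. Klrg1 and Klra5 are the genes whose 3 cKO libraries all lie above the 3 WT libraries.

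**Figure D2:**
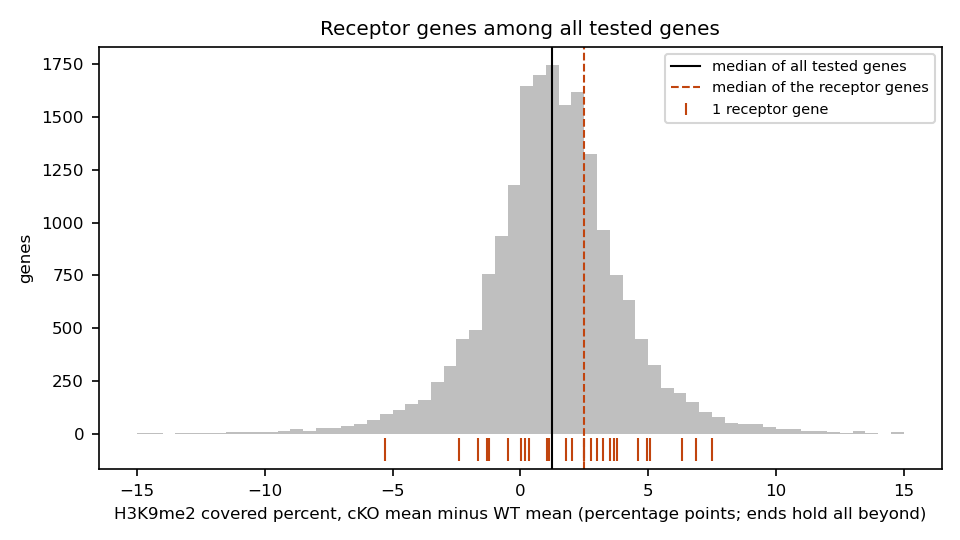
Number of genes (vertical axis) by the difference in covered percent between the cKO and WT means, in percentage points (horizontal axis), for 19018 tested genes, with each of the 27 receptor genes as a tick below. The solid line is the median of all tested genes, 1.26, and the dashed line that of the receptor genes, 2.49. The receptor genes lie between -5.30 and 7.49.

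The 3 libraries of a group did not overlap with those of the other at 2 of 27 members, Klra5 and Klrg1, both with cKO above WT. Among all tested genes 13% showed that order and 1.34% the reverse, which 0 members showed. At an unadjusted p under 0.05 there was 1 member with a higher mean in cKO (Klra5) and 1 with a lower mean (Klrb1), beside 7.42% and 0.941% of all tested genes. These shares are small counts near the background of all genes. Both orders rest on how much flanking sequence is counted: with 10 kb on both sides the non-overlapping members were Klra5, Klrc3 and Klrb1f (cKO above WT) and Klrb1 (cKO below WT), and without a flank there were 0.

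How often the mark recurred at a receptor gene was near the share of all genes. A peak was present in all 6 libraries at 12 of 27 windows, beside 40.0% of all tested genes, and 15 members were at 0% in at least 1 library. A base covered in 2 or more libraries existed at 24 of 27 members (88.9%, beside 77.3% of all tested genes) and a base covered in 3 or more at 14 of 27 (51.9%, beside 40.8%). For 4 or more libraries the count was 3 of 27 (11.1%, beside 17.3%), and for 5 or more it was 0 of 27, beside 5.48%. The members thus lay above the share of all genes at the lower numbers of libraries and below it at the higher ones, and these differences were not tested. The 3 sites shared by 4 libraries were a stretch of 501 bp inside Klrb1b (chr6:128821875-128822375), 276 bp inside Klrc1 (chr6:129669025-129669300) and 407 bp beside Klra8 (chr6:130131829-130132235).

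The Klra genes encode the Ly49 receptors, which bind MHC class I proteins in the mouse. Most are inhibitory, while Klra4 (Ly49D) and Klra8 (Ly49H) are activating. Peaks covered 6.93, 4.26 and 3.23% of the 353 kb around the 11 genes in cKO and 1.25, 3.59 and 3.28% in WT. The highest value was cKO replicate 1 and the lowest WT replicate 1, and the other 4 libraries lay close together.

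Klra5, which encodes Ly49E, had 6.94, 5.66 and 3.29% in cKO and 2.07, 0 and 0% in WT. The difference of 4.61 ± 1.51 percentage points (SE) had the smallest p of the family and did not pass (adjusted p by limma = 0.543). The cKO coverage came from different stretches in each library: a peak of cKO replicate 2 (chr6:129914230-129915602) overlapped the single WT peak in this window, while those of cKO replicates 1 and 3 touched neither. The peaks of cKO replicates 2 and 3 and of WT replicate 1 lay wholly in the flank. Without a flank Klra5 had 11.8, 0 and 0% in cKO and 0% in every WT library. Klra3, which encodes the inhibitory Ly49C, had 11.6, 3.19 and 11.5% in cKO and 0, 7.30 and 0% in WT, where WT replicate 2 lay above cKO replicate 2 (adjusted p by limma = 0.568). Klra8, whose product recognises a protein of mouse cytomegalovirus, ranged most within a group, with 3.76, 21.0 and 0% in cKO and 0, 7.47 and 8.98% in WT. Klra4 had means of 5.64 ± 6.22% in cKO and 5.63 ± 5.71% in WT (SD, n = 3 each). Klra2 (Ly49B), outside the complex, had 3.45, 1.54 and 6.43% in cKO and 0, 1.74 and 0% in WT, and WT replicate 2 lay above the lowest cKO library. The remaining Klra17 (Ly49Q), Klra6, Klra9, Klra7 and Klra10 had group means between 2.03 and 5.74% with overlapping libraries. At each of the 4 genes Klra6, Klra9, Klra7 and Klra10 a library at 0% was found in both groups.

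Klra1, which encodes the inhibitory receptor Ly49A (chr6:130363918-130386874), had the lowest mean coverage of the family, and was the single member with spleen ATAC peaks. It was covered over 5.98, 1.52 and 0% in cKO, while every WT library had 0% (adjusted p by limma = 0.620). In the 2 covered libraries this was 1 peak each, at separate places. In spleen Treg an ATAC peak sat on its transcription start (chr6:130386503-130387371, centre at -63 bp from the start) with 17.2 normalised tags, and another inside the gene (chr6:130371563-130372431) with 19.4. Both were weak peaks, at the 19.9th and 29.6th percentile of the spleen list, each with a score of 18 tags against the threshold of 15. Tumour Treg had 0 ATAC peaks at Klra1. Klra1 was the 1 member of 27 with a spleen-only peak, beside 5.65% of all placed genes, and a spleen peak with 0 tumour peaks was seen at 1.27%. With 1 library per tissue this difference has no replicate check.

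The 250 bases upstream of the Klra1 start lie wholly within the spleen peak and are shown for that reason (chr6:130386875-130387124, minus strand, 5′ to 3′, from RefSeq, GRCm38.p6). The capitals mark a match to the RUNX motif TGTGGT.
Klra1: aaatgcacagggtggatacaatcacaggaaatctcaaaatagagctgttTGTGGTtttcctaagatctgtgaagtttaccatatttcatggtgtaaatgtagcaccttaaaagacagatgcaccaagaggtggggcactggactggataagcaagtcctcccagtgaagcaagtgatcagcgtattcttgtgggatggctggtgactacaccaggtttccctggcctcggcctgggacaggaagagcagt
This window was 46.1 to 51.8% identical to those of the other 10 Klra genes in global alignment, whereas the pairs Klra4 with Klra8 (84.5%) and Klra3 with Klra9 (83.6%) were close copies. How reads that fit several copies were placed is not stated in the labels or headers, so values of single Klra genes are uncertain to that extent.

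The Klra block held no tumour ATAC peak. From Klra17 to Klra1, over 556 kb, there were 0 tumour peaks and the 2 spleen peaks at Klra1. The stretch without tumour peaks around it ran from chr6:129747659 to 131292938, 1.55 Mb that hold 12 of the 27 receptor genes. Of 27598 stretches between neighbouring tumour peaks on the autosomes and X, 266 (0.964%) were as long or longer, and these make up 31.3% of the length of all such stretches. H3K9me2 peaks were called in this block in every library, 39, 25 and 16 in cKO and 10, 23 and 13 in WT. How fully ATAC reads could be placed there was not tested.

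**Figure D3:**
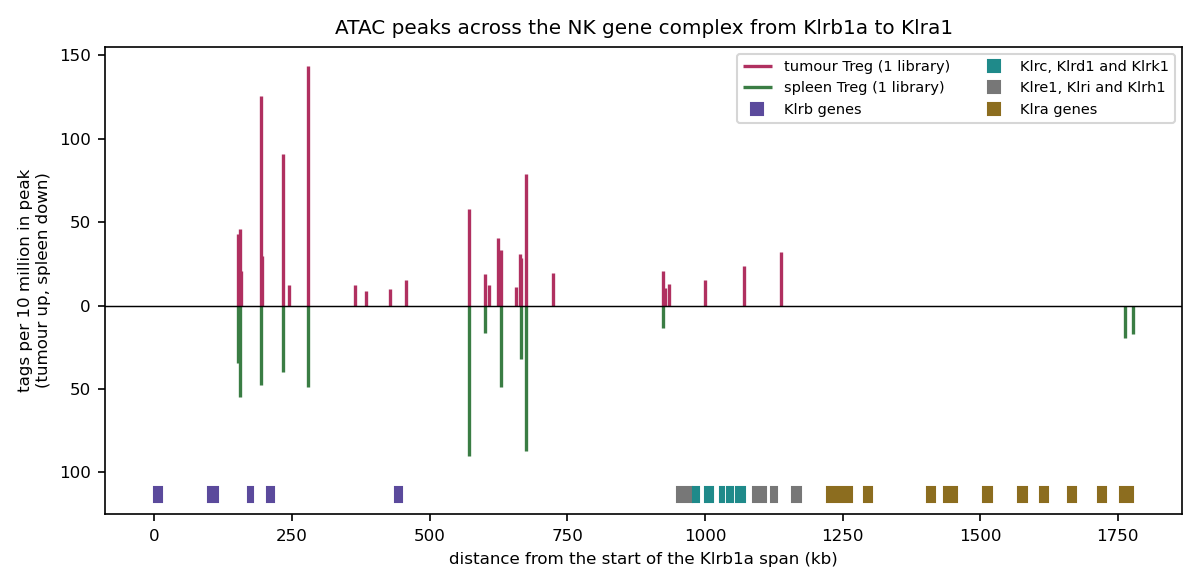
ATAC peaks in tumour Treg (upward) and spleen Treg (downward) by distance from the start of the Klrb1a span in kb (horizontal axis), with line length as normalised tags in the peak (vertical axis) and gene spans as boxes below. Each tissue is 1 library and peaks are of different width in the tissues, so lengths compare only within a tissue. The Klra block holds 0 tumour peaks and 2 spleen peaks, and the tallest tumour peaks, 143.4 and 125.7, lie among the Klrb genes.

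The Klrb genes encode the NKR-P1 receptors, whose ligands are products of Clec2 genes interleaved with them. Klrb1c encodes NK1.1, the activating receptor used to define NK cells in this strain, and Klrb1b encodes an inhibitory receptor for the product of Clec2d. The 119 kb around the 5 genes were covered over 9.26, 8.58 and 4.40% in cKO and 5.08, 4.60 and 5.53% in WT, so 2 cKO libraries lay above and 1 below every WT library. Klrb1b had the highest mean of all 27 members, with 16.7, 15.7 and 3.06% in cKO and 2.22, 2.22 and 8.52% in WT. Klrb1a, next in rank after Klrc1, had 13.3, 14.5 and 4.19% in cKO and 0, 0 and 11.4% in WT. Both had 2 cKO libraries above every WT library and cKO replicate 3 below WT replicate 3 (adjusted p by limma = 0.570 and 0.592).

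Klrb1, which encodes the inhibitory receptor NKR-P1G, went the other way, with 0, 3.70 and 2.23% in cKO and 9.30, 9.22 and 3.32% in WT. The difference was -5.30 ± 2.15 percentage points (SE, adjusted p by limma = 0.568), and cKO replicate 2 overlapped WT replicate 3. This gene was singled out after its values were seen. Klrb1c had 4.97, 8.08 and 3.14% in cKO and 8.77, 8.86 and 2.49% in WT, and Klrb1f 12.9, 2.10 and 9.49% against 4.73, 2.36 and 2.10%, both with overlapping groups.

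Within 5 kb of the 5 Klrb genes there were 0 ATAC peaks in either tissue. Farther out Klrb1c and Klrb1b had the largest number of peaks of the complex near them, with 5 and 3 tumour peaks and 3 and 2 spleen peaks within 20 kb. The strongest of these lay between the 2 genes at chr6:128803048-128803370, inside the non-coding gene Gm34755 and 10336 bp from Klrb1b. It had 125.7 normalised tags in tumour (95.6th percentile of the list), and the spleen peak at the same place had 47.4 (79.5th percentile). Over the whole interval from Klrb1a to Klra1, with 5 kb on both sides, 28 tumour and 13 spleen peaks were listed. Of these, 11 tumour peaks touched a spleen peak and 17 did not, and 11 of the 13 spleen peaks touched a tumour peak. In the full lists 40.3% of tumour and 85.1% of spleen peaks touched one of the other tissue. The highest peak of the interval in tumour lay at Clec2i (143.4 normalised tags) and in spleen at Clec2d (89.9), and both lay outside the 5 kb windows of the receptor genes.

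Klrd1 encodes CD94, which pairs with the products of Klrc1 (NKG2A, inhibitory), Klrc2 (NKG2C) and Klrc3 (NKG2E) to recognise the MHC class Ib protein encoded by H2-T23. Klrk1 encodes NKG2D, an activating receptor for stress-induced ligands. The 101 kb around these 5 genes were covered over 6.30, 9.11 and 7.79% in cKO and 5.58, 6.01 and 5.34% in WT. Summed this way, the 3 cKO libraries lay above the 3 WT libraries. Single genes of this group did not show that order, nor did the other groups of receptor genes when summed. These values were not scaled to genome-wide coverage. Peaks covered 141, 117 and 95.7 Mb of the autosomes and X in cKO and 102, 108 and 89.4 Mb in WT. Taken relative to these totals, cKO replicate 1 lay below each WT library, so that order was lost. Among all tested single genes 13% showed that order without scaling, and the share of comparable stretches was not computed. Klrk1 was the most even, with 5.62, 7.75 and 7.58% in cKO and 5.72, 4.96 and 4.25% in WT (adjusted p by limma = 0.670), where cKO replicate 1 lay below WT replicate 1. Klrc1 had 6.07, 5.6 and 8.44% in cKO and 11.4, 9.56 and 6.38% in WT, a difference of -2.40 ± 2.26 percentage points (SE, adjusted p by limma = 0.707). With the higher-scoring 50% of each peak list that difference turned to 3.19. Klrd1 had 7.02, 15.8 and 2.42% against 2.42, 4.84 and 3.15%, and its window overlaps that of Klre1, so the 2 genes share peaks.

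Tumour ATAC peaks lay at 2 of these genes, and spleen had 0. The peak at Klrk1 (chr6:129608425-129608747) lay 1576 bp beyond the end of the gene opposite its start, with 15.5 normalised tags (30.7th percentile). It overlapped H3K9me2 peaks of 2 cKO libraries and 1 WT library. The peak at Klrc1 (chr6:129680453-129680775) was centred at -1641 bp from the listed start, with 23.9 normalised tags (49.3th percentile) and 0 overlapping H3K9me2 peaks. This peak lay inside the gene span (chr6:129666015-129682852), which extends past that start. Upstream sequence of Klrc1, also inside the span, is shown as the receptor start nearest to a tumour-only peak of the complex (chr6:129678974-129679223, minus strand, from RefSeq). The capitals mark the RUNX motif TGTGGT, read on the other strand.
Klrc1: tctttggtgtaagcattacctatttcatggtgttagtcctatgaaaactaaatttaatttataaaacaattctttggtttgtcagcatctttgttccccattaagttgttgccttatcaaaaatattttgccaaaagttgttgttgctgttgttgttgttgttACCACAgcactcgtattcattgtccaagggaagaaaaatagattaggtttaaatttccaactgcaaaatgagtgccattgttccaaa

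Klrc2 and Klrc3 are neighbours with near-identical upstream sequence, and identity over the whole genes was not measured. Their windows with 5 kb on both sides overlap each other, and that of Klrc2 overlaps that of Klrc1. This limits how far the values of these genes can be told apart. Klrc2 had 7.0, 13.0 and 5.23% in cKO and 3.46, 6.25 and 6.59% in WT, and Klrc3 11.3, 2.90 and 12.8% against 4.24, 0 and 11.7%. Their upstream windows were 98.0% identical, the highest of 276 pairs of members, and are shown with the bases that differ or have no partner in capitals (Klrc2 chr6:129660557-129660806 and Klrc3 chr6:129643289-129643538, minus strand, from RefSeq).
Klrc2: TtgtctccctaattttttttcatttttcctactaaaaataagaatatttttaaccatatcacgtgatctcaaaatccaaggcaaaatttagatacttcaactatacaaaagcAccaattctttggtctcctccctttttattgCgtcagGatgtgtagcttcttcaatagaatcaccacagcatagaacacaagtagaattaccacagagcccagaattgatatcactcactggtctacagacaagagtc
Klrc3: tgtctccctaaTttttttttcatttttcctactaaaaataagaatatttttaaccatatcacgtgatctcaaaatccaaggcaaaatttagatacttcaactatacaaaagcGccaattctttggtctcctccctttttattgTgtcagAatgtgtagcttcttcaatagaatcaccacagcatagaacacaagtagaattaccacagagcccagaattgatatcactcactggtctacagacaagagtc

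Klre1 encodes a chain that pairs with the inhibitory product of Klri1 or the activating product of Klri2, and Klrh1 is a further lectin-like gene of the same block. The 119 kb around the 4 genes were covered over 6.38, 7.27 and 1.52% in cKO and 1.82, 3.86 and 3.85% in WT. Klre1 had 7.31, 13.3 and 0.414% in cKO and 4.55, 4.25 and 4.71% in WT, where the WT libraries were nearly equal and the cKO libraries lay on both sides of them. Klri2 had 9.48, 8.35 and 2.34% against 2.34, 5.26 and 9.20%. Klri1 (3.48 ± 3.17% in cKO and 1.68 ± 1.12% in WT, SD) and Klrh1 (2.89 ± 1.78% and 1.83 ± 1.66%) were among the least covered members. No ATAC peak lay within 5 kb of these 4 genes, and the nearest, a tumour peak of 32.3 normalised tags, lay 6852 bp from Klri2.

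Klrg1 encodes an inhibitory receptor for cadherins and was the member with the most ATAC peaks (chr6:122270596-122282833). Tumour Treg had 3 within 5 kb, at chr6:122269206-122269528, chr6:122270205-122270527 and chr6:122283446-122283768, with 16.4, 23.9 and 38.1 normalised tags (33.3rd, 49.3th and 66.5th percentile of the list). Spleen Treg had 0. The tumour peaks scored 17, 26 and 38 tags in their own library, against thresholds of 10 in the tumour and 15 in the spleen call. Peak width was 322 bp in the tumour and 869 bp in the spleen call, so these scores do not compare directly with the spleen threshold. Within 20 kb there were 7 tumour peaks and 1 spleen peak, and the spleen peak (chr6:122258534-122259402) touched one of the tumour peaks. A count of 3 or more tumour peaks with 0 spleen peaks within 5 kb were seen at 1.79% of all placed genes. The list used gives no start for Klrg1, so its sequence is not shown.

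H3K9me2 at Klrg1 was 7.62, 8.51 and 6.26% in cKO and 4.66, 2.25 and 4.11% in WT, so the groups did not overlap. The difference was 3.79 ± 1.68 percentage points (SE) and did not pass (adjusted p by limma = 0.568). It depended on the window, since peaks of WT replicates 1 and 3 crossed the lower edge of the 5 kb flank (chr6:122264803-122266130 and chr6:122264921-122266007) and a peak of WT replicate 2 ended just outside it (chr6:122264705-122265456). With 10 kb on both sides the values were 5.26, 7.84 and 8.53% in cKO and 5.67, 5.93 and 6.48% in WT, which overlapped, and the difference was 1.18. None of the 3 tumour ATAC peaks within 5 kb overlapped an H3K9me2 peak of any library.

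**Figure D4:**
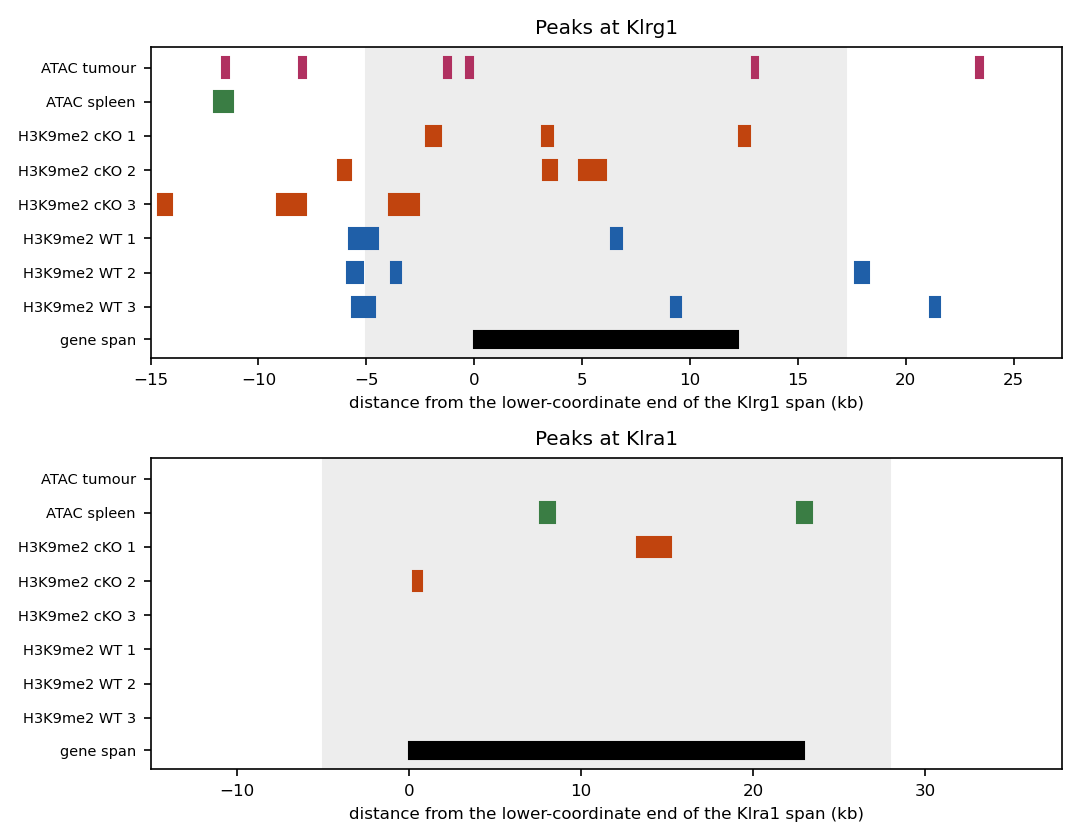
Peaks of each of the 8 libraries around Klrg1 (upper) and Klra1 (lower), by distance in kb from the lower-coordinate end of the gene span (horizontal axis), with the gene span as a black bar and the 5 kb window shaded. Klrg1 shows 3 tumour and 0 spleen ATAC peaks in the shaded window, and H3K9me2 peaks of the 3 WT libraries across or just outside its left edge. Klra1 shows 2 spleen and 0 tumour ATAC peaks, and H3K9me2 peaks in 2 cKO libraries.

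Klrg2, a related gene far from the complex (chr6:38616329-38638815), had 1.54, 5.05 and 1.54% in cKO and 0, 1.83 and 7.71% in WT, a difference of -0.469 ± 2.22 percentage points (SE, adjusted p by limma = 0.956). A tumour ATAC peak lay on its start (chr6:38637138-38637460, centre at -60 bp from the start) with 16.8 normalised tags (34.5th percentile), and spleen had 0. It was the single member start touched by a tumour peak among the 24 with a listed start, as Klra1 was for spleen. Among 17492 genes with a listed start, 42.5% were touched in tumour and 34.3% in spleen, counted over a short window around the start. Most of the 250 bases upstream of the Klrg2 start lie in the tumour peak (chr6:38637240-38637489, minus strand, from RefSeq), and they held 0 matches to the 7 motifs searched.
Klrg2: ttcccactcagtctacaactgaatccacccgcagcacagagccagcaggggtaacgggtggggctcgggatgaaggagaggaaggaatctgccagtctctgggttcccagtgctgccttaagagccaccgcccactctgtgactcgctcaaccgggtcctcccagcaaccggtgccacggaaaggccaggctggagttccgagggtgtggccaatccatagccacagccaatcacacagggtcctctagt

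Over the family, ATAC peaks were sparse. A tumour peak lay within 5 kb of 4 of 27 members (Klrg1, Klrg2, Klrk1 and Klrc1), beside 60.2% of all placed genes, and a spleen peak at 1 of 27 (Klra1), beside 47.3%. The median span was 14.5 kb for the members and 17.2 kb for all placed genes. All 6 tumour peaks at these 4 members touched 0 spleen peaks. A tumour-only peak was seen at 35.5% of all placed genes, and in the full tumour list 59.7% touched none. With the tumour list shortened to the 13078 highest-scoring peaks, the length of the spleen list, 1 member kept a tumour peak, Klrg1 with the one at chr6:122283446-122283768.

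H3K9me2 peaks at the starts of the receptor genes were few. Of the 24 members with a listed start, 5, 1 and 0 were touched in cKO and 2, 2 and 2 in WT. A start counted as touched when a peak met a short window around it. At Klrk1 the peak of cKO replicate 1 (chr6:129623187-129623817) met that window but ended short of the start itself. Klra7 was touched in 3 libraries and Klra6 and Klrb1f in 2 each. Among all genes with a listed start, 5.58, 6.81 and 5.22% were touched in cKO and 3.69, 6.5 and 5.25% in WT. The members lay above the share of all genes in cKO replicate 1 and in every WT library, and below it in cKO replicates 2 and 3. These are small counts, and the differences were not tested.

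Upstream windows of 250 bases were searched on both strands for 7 motifs of transcription factors of lymphocytes. The RUNX motif TGTGGT was found at 8 of 24 members (33.3%; Klra1, Klrb1a, Klrb1c, Klrc1, Klrc2, Klrc3, Klre1 and Klrk1) and at 14.3% of all 17492 genes with a listed start. Copies such as Klrc2 and Klrc3 hold theirs in near-identical sequence and are not independent counts. The STAT motif TTCNNNGAA was found at 3 members (Klra10, Klra2 and Klra7; 12.5% beside 7.65%) and the GATA motif AGATAA at 3 (Klra5, Klra7 and Klrb1f; 12.5% beside 10.3%). The motifs TGCGGT (RUNX), TCACACC (T-box), CAGGAAGT (ETS) and TGANTCA (AP-1) were found at 0 of 24, beside 6.77, 3.61, 3.09 and 7.19% of all genes.

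Partner genes of the receptors did not pass the H3K9me2 test either, with 0 of 39 tested members of 4 lists. Among 8 signalling partners, a tumour ATAC peak lay at 8 and a spleen peak at 6, with Syk and Ptpn11 lacking one in spleen. Of all placed genes, 60.2% held a tumour and 47.3% a spleen peak within 5 kb. The adaptor gene Tyrobp had a mean coverage of 3.97 ± 0.586% in cKO and 1.21 ± 2.10% in WT (SD, adjusted p by limma = 0.568), and Hcst, next to it in the genome, 4.51 ± 0.666% and 1.38 ± 2.38% (adjusted p by limma = 0.568). The windows of Tyrobp and Hcst overlap, so these genes share peaks and are not separate observations. The mean was higher in cKO at 6 of the 8 signalling partners and lower at 2. Among 16 ligand genes, 13 were tested, 10 with a higher mean in cKO and 3 with a lower one. Over all tested genes 71.2% had a higher mean in cKO. Of the 16 ligand genes, 8 held a tumour and 6 a spleen peak, beside the same 60.2% and 47.3% of all placed genes. Clec2i had 13.2 ± 5.28% in cKO and 3.87 ± 4.22% in WT (adjusted p by limma = 0.568), and Raet1d, a ligand gene of NKG2D, 7.37 ± 4.44% and 1.5 ± 2.60% (adjusted p by limma = 0.568). Clec2f went the other way, with 5.45 ± 5.09% in cKO and 9.46 ± 6.27% in WT (SD, adjusted p by limma = 0.710). H2-T23 held 3 tumour peaks and 1 spleen peak.

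Other lectin genes of the complex resembled the receptor genes in having few open sites, since 7 of 8 held no ATAC peak in either tissue and Cd69, an early activation antigen of lymphocytes, held 3 in tumour and 1 in spleen. In 3 of these 8 genes, Clec1b, Clec12a and Clec12b, the cKO libraries lay above all WT libraries, beside 13% of all tested genes, and Clec12b spans Clec1b, so they share peaks. Clec1b, known from platelets, had 7.95 ± 0.110% in cKO and 2.79 ± 2.80% in WT (adjusted p by limma = 0.568). Of 10 transcription factor genes, 10 held a tumour peak and 8 a spleen peak, beside 60.2% and 47.3% of all placed genes. Tbx21, which encodes T-bet, and Zeb2 had 2 and 5 tumour peaks and 0 in spleen. A tumour-only peak was held by 35.5% of all placed genes.

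The genes whose coverage over the 6 libraries lay nearest to that of Klrg1 were Plxnc1, Ust, Ccdc25, Tgm4 and Hip1, at Euclidean distances of 1.39 to 1.90 percentage points. Plxnc1 and Ust lie on chromosome 10, Ccdc25 on 14, Tgm4 on 9 and Hip1 on 5.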

How the data were processed

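H3K9me2 CUT&RUN (6 libraries) and ATAC-seq (2 libraries) peak lists were used as deposited, on mm10. Peak calling was by HOMER findPeaks on single libraries with no control, in histone style for H3K9me2 and factor style for ATAC, per the file headers. Per the submitters' processing notes, Trim Galore 0.6.6, Bowtie2 2.4.2, Picard, SAMtools 1.11 and deepTools were also used. The normalised tag signal is scaled so that libraries share one total, and the score counts unscaled tags, per the file headers. The authors' caller also gave the fold (ratio) over the surrounding 10 kb with a p-value, per the file headers. The deposited H3K9me2 lists hold 24.4 to 43.9% of the peaks counted in their headers, all with a fold of 2.01 or more, so a later filter was applied that no header states. Coverage by such peaks measures local enrichment, not the amount of the mark, and an even domain can be missed. No label or header says whether ATAC reads were shifted.

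Overlapping peaks of a library were joined, and coverage of each protein-coding gene (span with 5 kb on both sides) was taken with positions from a RefSeq table (GRCm38.p6). Left out were 108 genes listed before 3 Mb on the autosomes and X and 13 off the chromosomes used, which left 21779. Genes with a mean of 1% or more (19018, all 27 receptor genes included) entered limma 3.58.1 (R 4.3.3) with a trended prior, Benjamini-Hochberg adjustment and a threshold of 0.05. The fit was also run on simulated data, and the outcome is not used as support here. A count of 0 genes passing does not show that no gene differed. ATAC peaks, 1 library per tissue, were counted with no test, and an overlap of 1 bp counted as shared. Values in every library are given for members with an ATAC peak, with groups that do not overlap, or among the 3 highest or lowest means, and for further members where the text describes them. The members, lists and tests were chosen with earlier results of these data known. Coverage intervals from depth cannot be given for peak lists, and depth limits which peaks were called.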

Additional observations from a re-analysis of the deposited data

How the results depend on the processing

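Of the receptor genes, 0 passed under any of the 14 alternatives. Over all genes the count of 0 became 1 on an arcsine square root scale and 12 without the filter on low coverage. Leaving out 1 library gave 0 in each of 6 fits. The median difference of the members stayed positive, between 1.12 (peak lists of equal length) and 3.04 (no flank), and between 1.63 and 2.92 with 1 library left out. Under the same settings the median of all tested genes was positive too, between 0.388 (peak lists of equal length) and 1.75 (without WT replicate 2). Deviations of same-numbered cKO and WT libraries correlated at 0.0757, 0.00504 and 0.0260 over genes. Those of differently numbered libraries correlated between -0.0538 and 0.0264. Values this small do not settle whether replicate numbers pair the libraries. With the replicate number as a block, 0 genes passed and the median stayed at 2.49. Of 151 values of 11 named genes under the alternatives, 145 kept their sign and 0 passed. Klrg2 turned from -0.469 to 0.944 (no flank), 0.115 (without cKO replicate 1, and likewise without cKO replicate 3), 1.80 (without WT replicate 3) and 0.0196 on the arcsine scale, and ran from -2.06 to 1.80 with 1 library left out. Klrc1 turned to 3.19 with the higher-scoring 50% of each list. The causes were not tested.

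Tumour ATAC counts at the members moved with each choice of list and flank below. Members with a tumour peak numbered 4, and 1 with the tumour list cut to the spleen length, 1 with the higher-scoring 50%, 2 without a flank and 13 with 20 kb. Members with a spleen peak numbered 1, and 0 with the higher-scoring 50% and 4 with 20 kb. Tumour-only peaks at members numbered 6, and 1, 1, 2 and 15 under the same 4 settings. They stayed at 6 with either other definition of a shared peak. A peak missing from a list may lie under the caller's threshold.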
